A study of Mus musculus with 96 samples.

Results

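The genes of transcellular calcium and magnesium handling in the distal nephron were followed through a microdissected mouse kidney. They comprise 10 genes, chosen by symbol: the calcium entry channels Trpv5 and Trpv6, the magnesium-permeable channels Trpm6 and Trpm7, the calcium-binding proteins S100g (calbindin-D9k), Calb1 (calbindin-D28k) and Pvalb (parvalbumin), the sodium/calcium exchanger Slc8a1 (NCX1), and the plasma membrane calcium pumps Atp2b1 (PMCA1) and Atp2b4 (PMCA4). All 10 were found, each under 1 identifier, among the 54532 genes of the table, and all 10 passed the filter on low values. Glomeruli and 14 tubule segments were dissected from male C57BL/6 mice of 6 to 8 weeks, pathogen-free and fed ordinary chow, with no treatment named in the labels. In order of flow the tubule groups were 3 stretches of the proximal tubule (PTS1, PTS2, PTS3), the thin limbs of Henle's loop (DTL1 to DTL3 descending, ATL ascending) and its thick limb in medulla (MTAL) and cortex (CTAL). They were followed by the distal convoluted tubule (DCT), the connecting segment (CNT) and the collecting duct, cut into its cortical (CCD), outer medullary (OMCD) and inner medullary (IMCD) stretches. There were 93 dissected samples from 53 mice, with 3 mice a group except in CCD, CTAL and PTS2 (5 each) and in OMCD and ATL (4 each). The 53 combinations of segment and mouse number equal the stated number of mice, so a mouse gave 1 segment. Its pieces (up to 3) were averaged, and a mouse is the replicate in what follows. The DCT was sampled as 1 segment, not split into an early and a late part.

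Most calcium is taken back along the nephron between cells, but in the distal convoluted and connecting tubules it crosses the cells themselves. It enters through TRPV5 or TRPV6 in the apical membrane, is ferried and buffered by calbindins, and leaves through NCX1 and the calcium pumps on the basolateral side. Magnesium enters cells of the distal convoluted tubule through channels that contain TRPM6 and its broadly expressed relative TRPM7, and parvalbumin is a known marker of the early part of that segment. Parathyroid hormone, vitamin D and klotho are classical regulators of this machinery.

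Levels are in TPM, a unit of transcript abundance scaled to transcript length and to the library total, so that levels of different genes can be set side by side. Since TPM keep no read count, sequencing depth is unknown here and counting error cannot be stated. The DCT group matched its label: Slc12a3, the thiazide-sensitive sodium chloride cotransporter of DCT cells, was at 5782 ± 220 TPM (SD, n = 3) in DCT, 0.311 ± 0.102 (n = 5) in CTAL and 0.338 ± 0.437 (n = 3) in CNT. The DCT pieces also held Umod of the thick limb (1808 ± 413 TPM, against 36934 ± 1691 in CTAL). Slc12a1 and Cldn16 of the same thick limb list fell further, by 9.21 ± 0.62 and 7.45 ± 0.37 on the log2(TPM + 1) scale from CTAL to DCT. Scnn1b of the connecting tubule and principal cell was at 307 ± 25.3 TPM in DCT, against 1149 ± 76.5 in CNT. Aqp2 of the same cells was at 21.8 to 194 TPM in the DCT pieces, against 4675 to 7734 TPM in the CNT pieces. The summed level of the 5 genes of the connecting tubule and principal cell list was 838 to 972 TPM in DCT and 9551 to 13068 TPM in CNT, and that of the 5 intercalated cell genes 757 to 856 TPM and 5363 to 5771 TPM. No markers of the thin limbs were listed, so the labels of DTL1 to DTL3 and ATL were not checked. In such bulk pieces, fewer cells of a type and less RNA per cell cannot be told apart. The mixture's part in the DCT and CNT values was not tested. The groups also differed in their transcripts of odorant and vomeronasal receptor genes, families named for the sense of smell. The 1979 such genes summed to 1005 to 4756 TPM in the glomerulus and the descending limbs, 70.1 to 2934 in ATL, 432 to 927 in OMCD, 179.6 to 324 in PTS1 and 71.7 to 248 in IMCD, against 11.985 to 58.0 in MTAL, CTAL, DCT, CNT and CCD and 4.93 to 16.4 in PTS2 and PTS3. Their part in the low values of members in those groups was not tested.

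The promoters of 9 of the 10 genes have an entry in the set of RefSeq promoters used here, which holds none for Calb1. Each entry runs from 250 bases before to 50 bases after an annotated start. A few are printed 5′ to 3′ from build GRCm38.p6: those of the paralogs Trpv5 and Trpv6, which lie on the same strand of 1 chromosome but differed in their segments, of S100g, the most abundant member, and of Trpm6 and Pvalb, which both peaked in DCT. Capitals mark matches on either strand to a TATA box (TATAAA), a nuclear receptor half-site (AGGTCA) or an AP-2 site (GCCNNNGGC). No matches overlapped.
Trpv5, chr6:41680674-41680973, minus strand: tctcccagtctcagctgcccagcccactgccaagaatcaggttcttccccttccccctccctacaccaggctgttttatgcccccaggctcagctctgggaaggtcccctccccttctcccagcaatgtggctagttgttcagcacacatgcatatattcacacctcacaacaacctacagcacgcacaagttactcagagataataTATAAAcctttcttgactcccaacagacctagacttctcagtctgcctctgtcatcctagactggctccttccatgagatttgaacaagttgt
Trpv6, chr6:41636356-41636655, minus strand: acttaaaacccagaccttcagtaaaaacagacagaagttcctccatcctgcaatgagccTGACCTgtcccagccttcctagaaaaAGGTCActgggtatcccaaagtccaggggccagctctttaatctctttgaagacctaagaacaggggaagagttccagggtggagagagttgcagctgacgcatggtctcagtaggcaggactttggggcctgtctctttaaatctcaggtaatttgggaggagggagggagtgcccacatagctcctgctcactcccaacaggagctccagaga
S100g, chrX:162964550-162964849, minus strand: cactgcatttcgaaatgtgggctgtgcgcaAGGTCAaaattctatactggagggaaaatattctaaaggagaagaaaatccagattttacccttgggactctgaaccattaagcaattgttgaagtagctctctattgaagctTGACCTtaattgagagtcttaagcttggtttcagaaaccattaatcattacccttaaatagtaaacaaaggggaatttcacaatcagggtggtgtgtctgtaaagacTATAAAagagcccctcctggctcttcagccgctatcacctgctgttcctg
Trpm6, chr19:18749480-18749779, plus strand: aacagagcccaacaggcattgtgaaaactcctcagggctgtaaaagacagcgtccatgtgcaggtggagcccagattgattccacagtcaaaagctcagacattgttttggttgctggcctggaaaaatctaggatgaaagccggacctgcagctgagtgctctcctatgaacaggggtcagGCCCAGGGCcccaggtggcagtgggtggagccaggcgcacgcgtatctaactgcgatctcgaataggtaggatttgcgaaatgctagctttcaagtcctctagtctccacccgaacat
Pvalb, chr15:78206351-78206650, minus strand: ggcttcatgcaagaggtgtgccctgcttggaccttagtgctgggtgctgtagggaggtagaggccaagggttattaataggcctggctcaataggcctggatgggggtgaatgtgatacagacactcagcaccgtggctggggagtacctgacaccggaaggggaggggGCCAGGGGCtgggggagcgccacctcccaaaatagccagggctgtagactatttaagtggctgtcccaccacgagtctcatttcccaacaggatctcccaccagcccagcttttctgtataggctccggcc
The letters shared by Trpv5 and S100g are TATAAA, which begins at offset -43 from the annotated start in Trpv5 and at offset 0 in S100g. Trpv6 and S100g each hold the half-site at 2 places, at offsets -191 and -165 in Trpv6 and -220 and -107 in S100g. The printed promoters of Trpm6 and Pvalb each hold 1 AP-2 match, at offsets -68 and -81. Pvalb has another annotated start, whose promoter is not printed and holds an AP-2 match at offset -164. The promoters of Slc8a1, Trpm7, Atp2b4 and Atp2b1, not printed, hold no match to these letters. Over all 32851 promoters of the same length, 13.6% hold TATAAA, 16.3% the half-site and 16.6% the AP-2 letters, and a match here describes letters, not a site in use.

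The level of all 10 genes depended on the group (limma moderated F-test, adjusted p from 1.3e-35 for Calb1 to 6.4e-15 for Trpm7), as did 93.9% of all 33793 genes tested, so the count alone says nothing particular about them. Together the 10 genes made up 4.03% of all transcripts in DCT, 1.43% in CNT, 0.148% in CCD and 0.0156% in OMCD. In the other 11 groups they made up 0.00353% to 0.0221%.

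**Figure D1:**
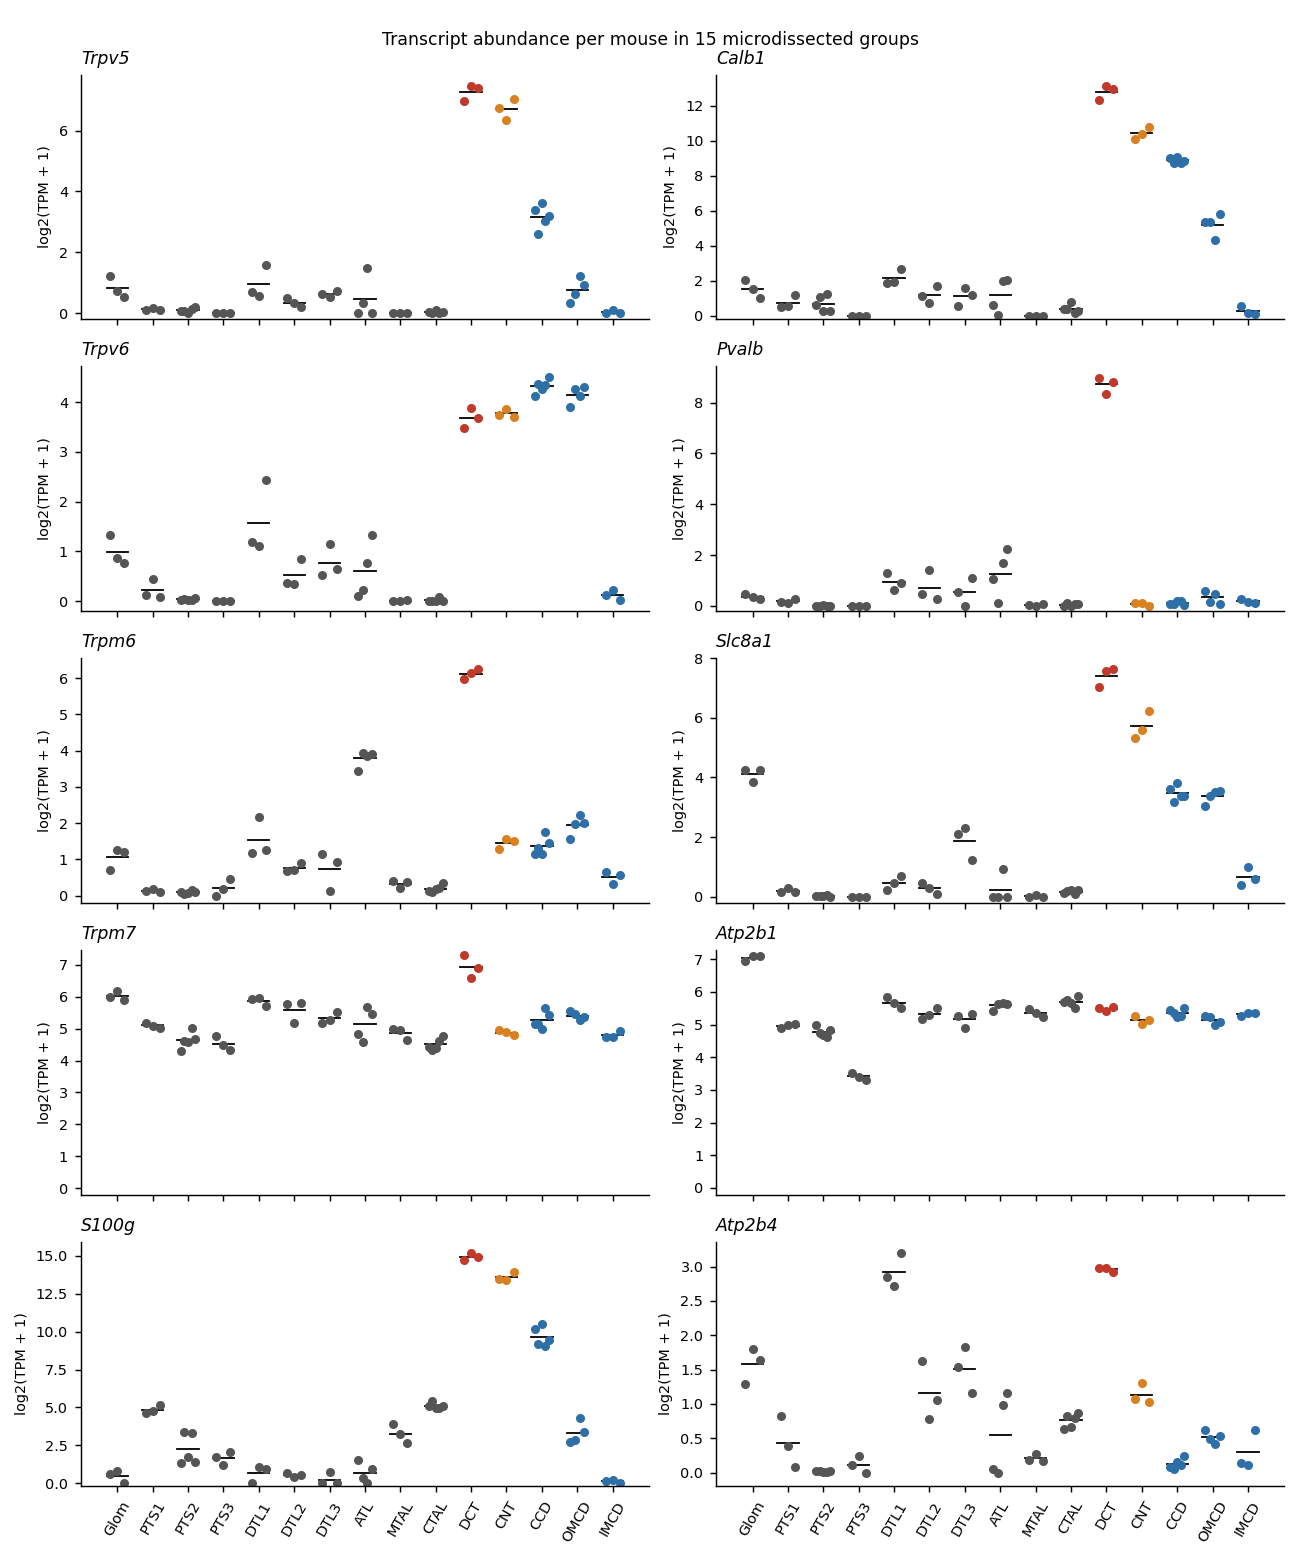
Transcript abundance of the 10 genes in each mouse, as log2(TPM + 1) on the vertical axis, over the 15 dissected groups on the horizontal axis (Glom, glomerulus). Points are mice and bars are group means. DCT is red, CNT orange and the collecting ducts blue. S100g, Calb1 and Slc8a1 step down from DCT through CNT to CCD, Trpv5 overlaps between DCT and CNT and is lower in CCD, Trpm6 and Pvalb stand out in DCT, Trpv6 is present from DCT to OMCD and close to 0 in IMCD, and Atp2b1 is present in every group.

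The transcripts of the 2 calcium entry channels differed in their course along the distal nephron. Trpv5 was at 124, 178 and 168 TPM in the 3 DCT mice and 108, 80.2 and 132 TPM in the 3 CNT mice, and the groups overlapped. In CCD it was 5.02 to 11.3 TPM (median 8.44, n = 5) and in OMCD 0.265, 0.540, 1.34 and 0.905 TPM. It was close to 0 on either side of this stretch: in MTAL, CTAL and IMCD no mouse exceeded 0.0750 TPM. Its rise from CTAL to DCT was 7.24 ± 0.25 on the log2 scale (SE), its fall from CNT to CCD was 3.55 ± 0.25, or 12.9-fold in mean TPM, and it fell again by 2.39 ± 0.23 from CCD to OMCD (limma, adjusted p = 6.8e-27, 2.1e-14 and 3.1e-11). The difference between DCT and CNT, 0.56 ± 0.27, did not pass the test (adjusted p = 0.27).

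Trpv6, the channel best known from the intestine, followed another course. It was at 10.2, 13.8 and 11.9 TPM in DCT, 12.4, 13.7 and 12.1 TPM in CNT, 16.5 to 21.6 TPM in CCD (median 19.3, n = 5) and 14.0, 18.3, 16.6 and 18.8 TPM in OMCD, and then at 0.0167 to 0.170 TPM in IMCD. The DCT and CNT mice overlapped, and every CCD mouse lay above every DCT and CNT mouse. From CTAL to DCT it rose, as Trpv5 did (3.67 ± 0.22, limma, adjusted p = 9.2e-18). Its drop, however, came only between OMCD and IMCD (4.03 ± 0.23, adjusted p = 7.5e-19). Upstream of the thick limb it was at 1.145 to 4.43 TPM in DTL1 and 0.700 to 1.55 TPM in the glomerulus. In the order of its levels, CCD, OMCD, CNT and DCT followed each other without a step that passed the test (adjusted p = 0.56, 0.22 and 1), while CCD exceeded DCT by 0.64 ± 0.22 (adjusted p = 0.035), short of the size of 1 on the log2 scale that a call required. The share of Trpv6 in the summed TPM of both channels was therefore 7.13 ± 0.498% in DCT, 11.1 ± 3.18% in CNT, 69.9 ± 7.21% in CCD (n = 5) and 95.8 ± 2.46% in OMCD (n = 4). No stretch of 50 bases is shared between the annotated transcripts of these paralogs (0 of 3242 in Trpv5, GENCODE M21), which bears on how well reads can be told apart.

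The calbindins S100g and Calb1 were the most abundant members in DCT and CNT. S100g, the small calbindin, was the transcript with the second highest mean of all 54532 genes in both DCT and CNT (rank 2), at 26967, 37366 and 31728 TPM in the 3 DCT mice and 11730.2, 10874.7 and 15430 TPM in the 3 CNT mice. No CNT mouse reached a DCT mouse. In CCD it was 520 to 1470.1 TPM (median 753, n = 5), in OMCD 5.86, 6.09, 21.8 and 9.54 TPM, and in IMCD 0.0989 ± 0.102 TPM (n = 3). It fell by 3.93 ± 0.39 from CNT to CCD and by 6.37 ± 0.36 from CCD to OMCD, the latter 83.0-fold in mean TPM (adjusted p = 1.0e-09 and 1.8e-18). The difference between DCT and CNT was 1.34 ± 0.44, or 2.53-fold in mean TPM (adjusted p = 0.035). That call was lost when DCT mouse 1, 2 or 3 or CNT mouse 1 or 2 was left out (adjusted p = 0.051 to 0.15), with a pseudocount of 0.1 (0.47), without a filter (0.055), with pieces averaged as TPM (0.057) and under quantile normalization, which gives both groups the same value because the gene has the same rank in them (difference 0, adjusted p = 1).

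Calb1, the large calbindin, was at 5125, 8856 and 7794 TPM in DCT, 1087, 1321 and 1751 TPM in CNT, 419 to 530 TPM in CCD (median 469, n = 5) and 39.1, 40.1, 19.3 and 56.5 TPM in OMCD. These 4 groups did not overlap. Calb1 fell by 2.38 ± 0.37 from DCT to CNT, 1.54 ± 0.33 from CNT to CCD, 3.66 ± 0.31 from CCD to OMCD and 4.94 ± 0.35 from OMCD to IMCD (adjusted p = 4.3e-06, 0.0042, 1.1e-12 and 6.9e-16). The fall from CNT to CCD missed the threshold without CNT mouse 3 (1.36, adjusted p = 0.090) and with a pseudocount of 0.1 (0.43). Between S100g, Calb1 and Pvalb the balance differed along the way. S100g made up 80.8 ± 1.74% of their summed TPM in DCT, 90.2 ± 1.22% in CNT, 63.7 ± 7.66% in CCD and 23.2 ± 19.5% in OMCD, and Calb1 18.1 ± 2.06%, 9.83 ± 1.22%, 36.3 ± 7.65% and 76.2 ± 19.7%. In OMCD the share of S100g reached 52.5% in mouse 3, and without that mouse the mean was 13.5%. The ratio of S100g to Calb1 was thus 4.07 to 5.26 in DCT mice, 8.23 to 10.8 in CNT mice, 1.24 to 2.77 in CCD mice and 0.150 to 1.13 in OMCD mice.

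S100g also had a low second territory that Calb1 did not share. It was at 30.5 to 42.8 TPM in CTAL (median 33.3, n = 5), 5.84 to 13.8 TPM in MTAL and 23.5 to 34.9 TPM in PTS1, with Calb1 at 0.135 to 0.735, at most 0.00500 and 0.400 to 1.31 TPM in the same groups. CTAL exceeded MTAL in S100g by 1.85 ± 0.39 (adjusted p = 0.00098), and the groups did not overlap, but that call was lost with a pseudocount of 0.1 (adjusted p = 0.103). The ratio of S100g to Calb1 was 42.0 to 226 in CTAL mice and 26.6 to 58.8 in PTS1 mice. The 3 DCT markers summed to 0.320 to 0.690 TPM in CTAL and 9.04 to 14.3 TPM in PTS1. Among these markers, Slc12a3 was at 0.04 to 0.79 TPM in the CTAL pieces and 0.35 to 1.08 TPM in the PTS1 pieces. The 5 genes of the connecting tubule and principal cell list summed to 48.5 to 89.6 TPM in CTAL and 46.4 to 56.9 TPM in PTS1. Aqp2, a water channel of that list, was at 2.74 to 11.4 TPM in the CTAL pieces and 0.170 to 1.47 TPM in the PTS1 pieces. The part of cells from other segments in the S100g of CTAL and PTS1 was not tested. In PTS2 the S100g of 2 pieces (mouse 3 piece b, 19.6 TPM, and mouse 5 piece b, 16.9 TPM) stood above the other 6 (1.5 to 4.50 TPM), and in these 2 pieces Calb1 was high too (2.75 and 3.31 TPM, against 0.140 to 0.530).

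Pvalb was high in DCT and close to 0 elsewhere. It was at 505, 335 and 456 TPM in DCT and at most 0.0950 TPM in any CNT mouse, 0.0800 in any CTAL mouse and 0.150 in any CCD mouse, and its highest value elsewhere was 3.74 TPM, in 1 ATL mouse. It differed from CTAL by 8.67 ± 0.26 and from CNT by 8.63 ± 0.29 (adjusted p = 7.4e-29 and 2.0e-26), the largest change of any member between DCT and CNT. Within the 3 buffers it contributed 1.14 ± 0.415% of the summed TPM in DCT.

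**Figure D2:**
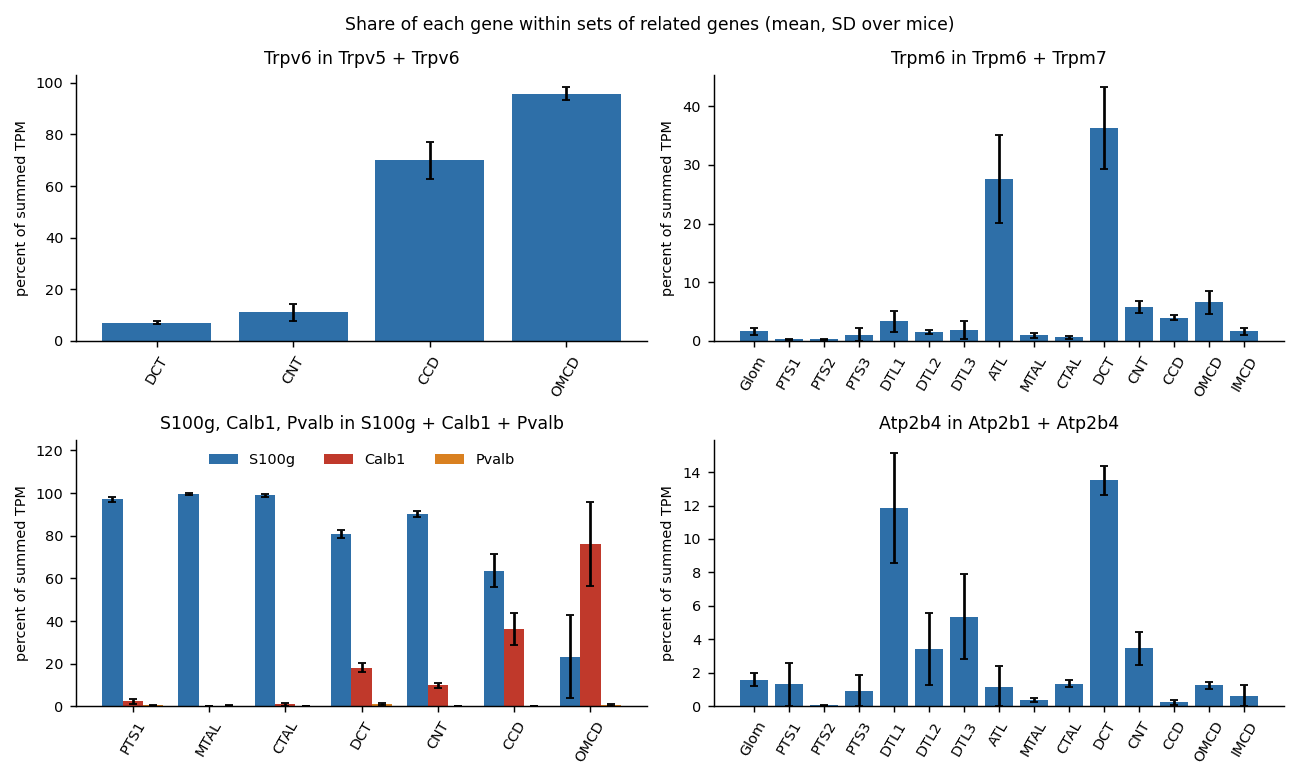
Share of each gene in the summed TPM of its set, in percent on the vertical axis, by group on the horizontal axis, given where every mouse has at least 5 TPM in sum. Bars are means and lines SD over mice (cut at 0). Trpv6 goes from 7.13% of both entry channels in DCT to 95.8% in OMCD, Trpm6 is prominent in DCT and ATL, Calb1 overtakes S100g in OMCD, and Atp2b4 reaches 13.5% of both pumps in DCT and 11.9% in DTL1.

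Among the extrusion genes, Slc8a1 and the weakly expressed pump Atp2b4 rose into DCT and fell to CNT, and the pump Atp2b1 did neither. The exchanger was at 133, 190 and 196 TPM in DCT, 40.0, 46.7 and 75.2 TPM in CNT, 8.04 to 12.97 TPM in CCD (median 9.58, n = 5) and 7.17, 9.34, 10.3 and 10.8 TPM in OMCD, and no CTAL or MTAL mouse exceeded 0.170 TPM. It rose by 7.24 ± 0.22 from CTAL to DCT, fell by 1.70 ± 0.24 from DCT to CNT and by 2.24 ± 0.22 from CNT to CCD, and fell by 2.71 ± 0.23 from OMCD to IMCD (adjusted p = 5.2e-29, 5.9e-07, 4.5e-10 and 1.3e-13), with 0.11 ± 0.20 between CCD and OMCD (adjusted p = 0.70). The glomerulus held 13.3 to 18.0 TPM, lower than CNT by 1.61 ± 0.24 (adjusted p = 2.7e-07).

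Atp2b1 was expressed throughout, at 41.6 to 45.6 TPM in DCT, 31.2 to 37.2 in CNT, 36.5 to 44.6 in CCD, 30.8 to 37.8 in OMCD and 38.9 to 40.1 in IMCD. It was the only member that did not rise from CTAL to DCT (higher in CTAL by 0.21 ± 0.11, adjusted p = 0.36). Its 2 marked departures lay outside the distal nephron. The glomerulus, at 122 to 136 TPM, exceeded CTAL by 1.35 ± 0.11 (adjusted p = 1.2e-14, a difference called for 45.6% of all genes), and PTS3, at 9.20 to 11.8 TPM, lay below PTS2 by 1.36 ± 0.11 (adjusted p = 1.8e-13, called for 3.94% of all genes as higher in PTS2). In between, no neighbouring groups in its order of levels differed (adjusted p at least 0.26). Atp2b4 was low everywhere but had a DCT peak: 6.91, 6.97 and 6.59 TPM in DCT, 1.10, 1.495 and 1.04 TPM in CNT and 0.0400 to 0.190 TPM in CCD, without overlap. It was also at 5.61 to 8.22 TPM in DTL1, where the difference from DCT did not pass the test (0.04 ± 0.23, adjusted p = 0.90). Under quantile normalization, Atp2b4 was called higher in DCT than in every other group, by 1.72 over the next (adjusted p = 1.6e-08). DTL1 held 2969 to 4756 TPM of the receptor genes named above. Its rise from CTAL to DCT was 2.2 ± 0.21 and its fall to CNT 1.83 ± 0.23 (adjusted p = 1.8e-11 and 6.0e-08), the latter below the required size with a pseudocount of 5 (0.93). The further fall to CCD, 1.01 ± 0.21 (adjusted p = 0.0027), dropped below the required size without CNT mouse 2 (0.92) or CCD mouse 1 or 2 (0.99 each), with median ratio scaling (0.94), with all pieces and the mouse as a random effect (0.99) and with a pseudocount of 5 (0.28). Atp2b4 made up 13.5 ± 0.869% of the summed TPM of both pumps in DCT and 3.46 ± 0.970% in CNT.

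The magnesium channels both peaked in DCT, at different contrast. Trpm6 was at 63.1, 69.6 and 75.8 TPM in DCT and 1.46, 1.96 and 1.85 TPM in CNT, a 39.7-fold difference in mean TPM. It rose by 5.93 ± 0.20 from CTAL to DCT and fell by 4.68 ± 0.23 to CNT (adjusted p = 1.1e-26 and 1.3e-20). CCD held 1.20 to 2.36 TPM (n = 5) and OMCD 1.99 to 3.67 TPM (n = 4), and the OMCD exceeded IMCD by 1.42 ± 0.21 (limma, adjusted p = 5.9e-07). That difference was below the required size under quantile normalization (0.62) and with a pseudocount of 5 (0.53). The second highest level of Trpm6 lay in ATL, at 9.83, 14.2, 13.6 and 14.0 TPM in its 4 mice, above OMCD by 1.85 ± 0.20 (adjusted p = 1.7e-10, a call made for 3.95% of all genes as higher in ATL) and below DCT by 2.34 ± 0.21 (adjusted p = 1.2e-12). The summed receptor TPM was 120 and 70.1 in the mice with 9.83 and 14.2 TPM of Trpm6, and 2934 and 2479 in those with 13.6 and 14.0 TPM. The 3 DCT markers summed to 0.180 to 4.28 TPM in ATL, against 5647 to 6061 TPM in DCT. In ATL the 3 thick limb markers summed to 304 to 736 TPM, and the 5 genes of the connecting tubule and principal cell list to 135 to 239 TPM. Of that last list, Scnn1b was at 0 to 0.64 TPM and Aqp2 at 1.46 to 25.05 TPM in the ATL mice. In MTAL the same list summed to 103 to 170 TPM, with Scnn1b at 0 in every mouse. The part of cells from other segments in the Trpm6 of ATL was not tested.

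Trpm7, which is present in nearly all cells, was at 159, 97.2 and 120 TPM in DCT and between 18.9 and 71.9 TPM in every mouse of the other groups, so that DCT overlapped none of them. It rose by 2.44 ± 0.18 from CTAL and fell by 2.06 ± 0.20 to CNT (adjusted p = 8.0e-15 and 6.6e-11), a 4.40-fold difference in mean TPM. Against the glomerulus, the next group in order, DCT was higher by 0.91 ± 0.20 (adjusted p = 0.00014). The share of Trpm6 in the summed TPM of both channels was 36.3 ± 6.99% in DCT and 27.7 ± 7.51% in ATL, against 5.80 ± 0.998% in CNT, 3.96 ± 0.463% in CCD, 6.56 ± 1.92% in OMCD and 0.264% to 3.37% in the other groups.

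Set out as steps from segment to segment, 9 of the 10 members rose from CTAL to DCT, 7 of these fell from DCT to CNT, and Trpv5 and Trpv6 first fell at later steps. At the step from MTAL to CTAL, 1 of 10 members differed, S100g, which was higher in CTAL. Of all genes, 2.57% were called higher in CTAL and 0.589% higher in MTAL. From CTAL to DCT, 9 of 10 members rose, with a median difference of 6.59 on the log2 scale (DCT minus CTAL, against -0.01 for all genes), where 2.01% of all genes were called higher in DCT and 2.34% higher in CTAL. From DCT to CNT, 7 of 10 members fell (Pvalb, Trpm6, Calb1, Trpm7, Atp2b4, Slc8a1 and S100g), and Trpv5, Trpv6 and Atp2b1 did not pass the test. The share of all genes called higher in DCT was 1.52%, and 3.7% were called higher in CNT. From CNT to CCD, 5 members fell (S100g, Trpv5, Slc8a1, Calb1 and Atp2b4), where 0.438% of all genes were called higher in CNT and 0.681% higher in CCD. From CCD to OMCD, 3 members fell (S100g, Calb1 and Trpv5), against 1.73% of all genes called higher in CCD and 10.4% in OMCD. From OMCD to IMCD, 5 members fell (Calb1, Trpv6, S100g, Slc8a1 and Trpm6), where 15.2% of all genes were called higher in OMCD and 3.4% in IMCD. At these last 2 steps the median of all genes was itself shifted, by -0.30 (CCD minus OMCD) and 0.32 (OMCD minus IMCD), and the fall of Trpm6 from OMCD to IMCD was 0.62 under quantile normalization and 0.53 with a pseudocount of 5, below the required size. Scaling also moved the balance of calls over all genes. The share of called genes higher in the upstream segment was 18.7% for MTAL to CTAL, 29.1% for DCT to CNT, 39.2% for CNT to CCD, 14.3% for CCD to OMCD and 81.7% for OMCD to IMCD. Under quantile normalization it was 29.4%, 45.8%, 58.6%, 56.4% and 45.9%, and under median ratio scaling 24.1%, 46.8%, 49.4%, 19.8% and 68.8%, in the same order. For CTAL to DCT it was 53.8%, with 46.7% under quantile normalization and 48.3% under median ratio scaling. No member reversed its direction at a called step under another scaling, with S100g between DCT and CNT at a difference of 0 under quantile normalization.

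**Figure D3:**
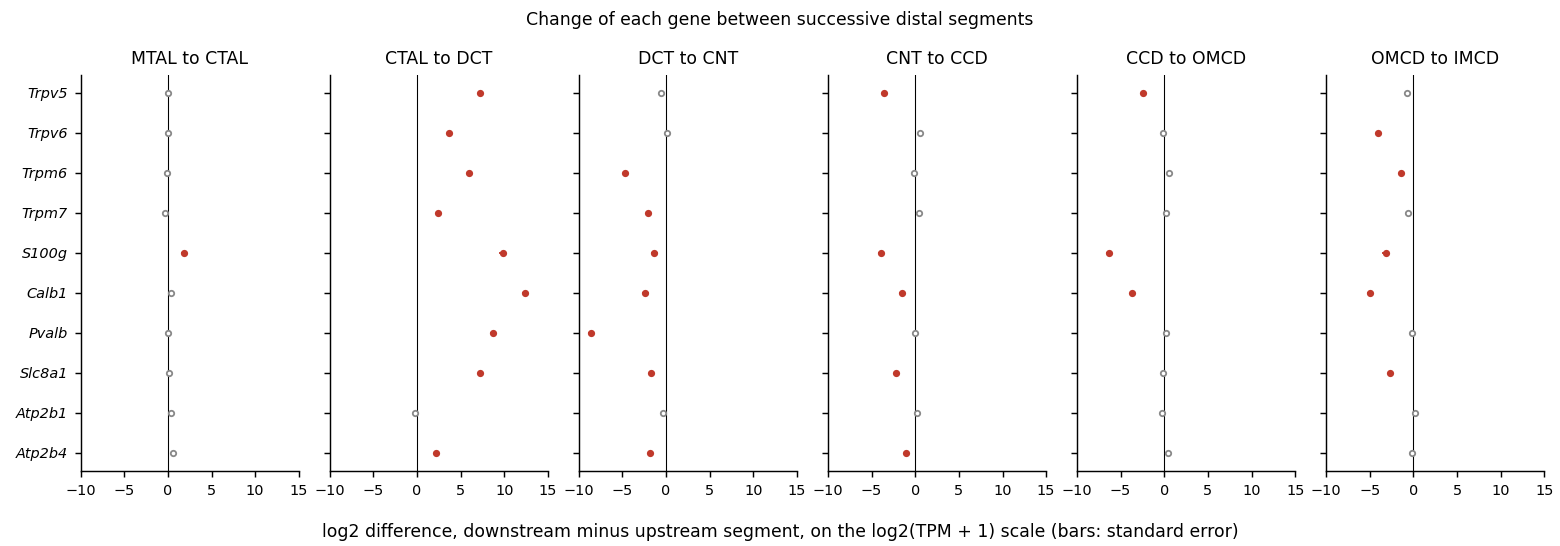
Change of each gene from 1 distal segment to the next, as the log2 difference (downstream minus upstream segment) on the log2(TPM + 1) scale on the horizontal axis, with 1 panel for each step. Filled red points passed the test (adjusted p under 0.05 and a difference of at least 1), open grey points did not, and lines are standard errors. Nearly all members move right between CTAL and DCT and 7 of them move left between DCT and CNT.

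Against every other group at once, 4 members were higher in DCT: Pvalb by 7.44 on the log2 scale over the next group (ATL), Calb1 by 2.38 (over CNT), Trpm6 by 2.34 (over ATL) and Slc8a1 by 1.70 (over CNT), with adjusted p = 1.5e-24, 3.5e-05, 6.3e-11 and 4.9e-06 in limma's contrasts. Of all genes, 0.21% passed this test. Trpm7 passed on p but not on size (0.91 over the glomerulus, adjusted p = 0.013), and it was called without DCT mouse 2 (1.08), with median ratio scaling (1.34) and with quantile normalization (1.39). S100g was called with a pseudocount of 5 (1.34, adjusted p = 0.0058) and Atp2b4 under quantile normalization (1.72). With DCT and CNT each set against the other 13 groups, 4 members were higher in both: S100g by 3.93 and Trpv5 by 3.55 over the next group (CCD for each), Slc8a1 by 1.61 (over the glomerulus) and Calb1 by 1.54 (over CCD), with adjusted p = 3.5e-09, 6.2e-14, 7.4e-05 and 0.036, where 0.0414% of all genes passed. The call of Calb1 in both segments was lost when any 1 CNT or CCD mouse was left out (adjusted p = 0.052 to 0.92), without a filter (0.060) and with pieces averaged as TPM (0.065). With a pseudocount of 0.1 Calb1 and Slc8a1 lost both calls (adjusted p = 0.36 to 1).

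The 6 DCT pieces differed in the balance of the members. Trpv5, Trpv6, S100g, Calb1 and Slc8a1 were lower in both pieces of mouse 1 (0.766 and 0.813 times the mean of the 6 pieces for Trpv5, 0.910 and 0.795 for Trpv6, 0.800 and 0.884 for S100g, 0.790 and 0.622 for Calb1, 0.896 and 0.644 for Slc8a1) than in any piece of the other mice. Pvalb and Trpm7 were lowest in piece a of mouse 2 (0.598 and 0.642 times the mean), in which Trpv5, S100g and Calb1 were highest (1.31, 1.26 and 1.25). Atp2b1 stayed within 0.929 to 1.09. Of the markers in the same pieces, Umod was lower in both pieces of mouse 2 (0.740 and 0.765), Slc12a3 ranged from 0.836 to 1.21, and Scnn1b from 0.674 to 1.18. Aqp2 ranged from 0.183 (mouse 3 piece a) to 1.63 (mouse 3 piece b) and was at 1.46 in piece a of mouse 2. In each of the 3 mice, the piece with more Aqp2 also held more Trpv5, S100g, Scnn1b and Slc26a4 (an intercalated cell gene). It held less Trpm6, Trpm7, Pvalb, Atp2b1, Slc12a3 and Umod. The other members did not keep to 1 direction. Calb1 and Slc8a1 were lower in the Aqp2-rich piece of mice 1 and 3 and higher in that of mouse 2. Trpv6 was lower in mice 1 and 2 and higher in mouse 3, and Atp2b4 was lower in mice 1 and 2 and equal in mouse 3. Klk1 (tissue kallikrein), like Slc12a3 a gene higher in DCT than in every other group, went the other way from Slc12a3. It was at 1.04 against 0.788 in mouse 1, 1.24 against 1.03 in mouse 2 and 1.05 against 0.847 in mouse 3, with the Aqp2-rich piece first. With 6 pieces of 3 mice these relations are a description, and the part of the dissected position in them was not tested.

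**Figure D4:**
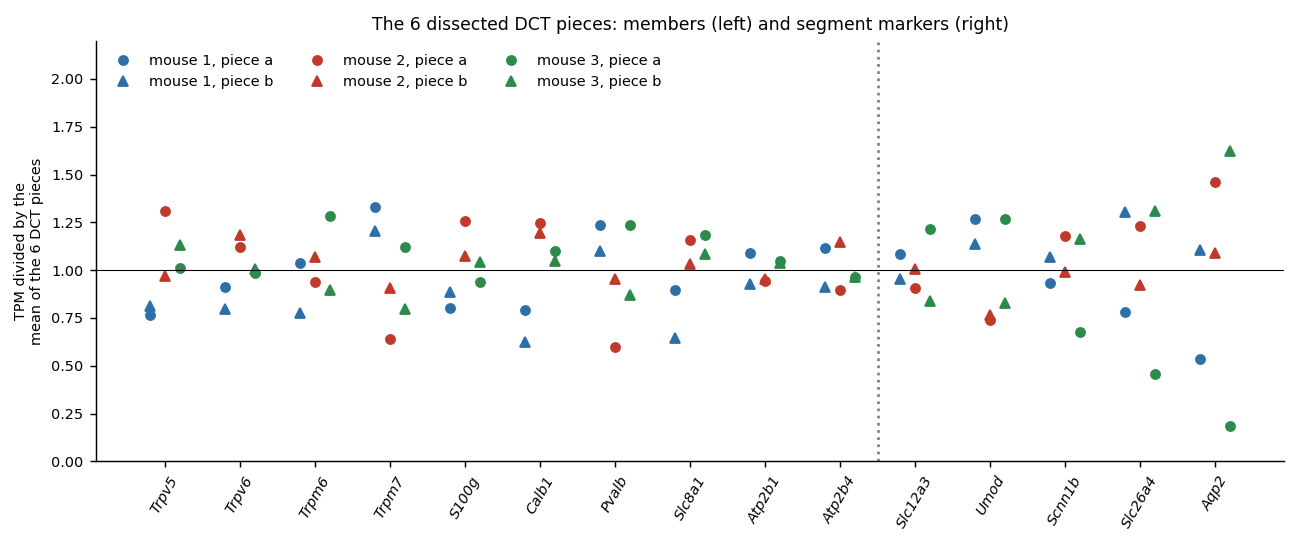
The 6 DCT pieces, as TPM divided by the mean of the 6 pieces on the vertical axis, for the 10 members (left of the dotted line) and 5 segment markers (right) on the horizontal axis. Colours are mice and symbols pieces. Piece a of mouse 2 is high for Trpv5, S100g and Calb1 and low for Trpm7 and Pvalb, and Aqp2 and Slc26a4 spread more widely than the members.

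Of 22 other genes of the calcium pathway listed (further pumps, exchangers, calmodulins, store-operated and receptor channels), 19 were tested. From CTAL to DCT, 2 rose and 1 fell, where 2.01% of all genes rose and 2.34% fell. From DCT to CNT 6 rose and 0 fell, against 3.7% and 1.52% of all genes (at an unadjusted p under 0.05 in limma, 12 were higher in CNT and 0 in DCT, against 14.5% and 3.49% of all genes), with a median difference, DCT minus CNT, of -0.65 against -0.02 for all genes. In limma's test against every other group, passed by 0.21% of all genes, 0 were higher in DCT, and 0 at an unadjusted p under 0.05 (0.518% of all genes). Atp2b2, the pump isoform best known from hair cells and neurons, was at 0.359 ± 0.0816 TPM in CTAL, 4.77 ± 0.358 in DCT, 28.8 ± 3.68 in CNT and 32.4 ± 5.89 in CCD, so that it rose from CTAL to DCT by 2.07 ± 0.30 and again to CNT by 2.38 ± 0.33 (adjusted p = 6.0e-07 and 3.8e-07). Trpv4, a mechanosensitive and osmosensitive calcium channel, rose from 1.93 ± 0.521 TPM in CTAL to 78.9 ± 15.2 in DCT and 201 ± 10.3 in CNT (4.78 ± 0.20 and 1.36 ± 0.23, adjusted p = 3.0e-23 and 1.5e-05). Stim1, the sensor of calcium stores, rose by 2.64 ± 0.31 from DCT to CNT, Anxa2 (annexin A2) by 1.91 ± 0.33, the mitochondrial uniporter Mcu by 1.69 ± 0.21 and the inositol trisphosphate receptor Itpr2 by 1.13 ± 0.23 (adjusted p from 6.7e-09 to 0.00027).

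Of 16 listed genes of magnesium transport, counted over 17 identifiers since Ptp4a1 has a pair of them, 2 rose and 1 fell from CTAL to DCT (2.01% and 2.34% of all genes). From DCT to CNT, 2 fell and 0 rose (1.52% and 3.7% of all genes), with a median of DCT minus CNT of -0.31 against -0.02 for all genes. At an unadjusted p under 0.05 in limma, 2 were higher in DCT and 5 in CNT (3.49% and 14.5% of all genes). Cnnm2, a basolateral protein of magnesium handling, was at 9.81 ± 0.370 TPM in CTAL, 122 ± 15.3 in DCT and 10.6 ± 0.705 in CNT, and it was the only gene of the list higher in DCT than in every other group (2.88 over the next group, PTS2, adjusted p = 1.7e-11, a call made for 0.21% of all genes), as Trpm6 was. Slc41a3, a mitochondrial magnesium transporter, rose by 4.26 ± 0.41 (adjusted p = 3.7e-11) from 1.73 ± 0.159 TPM in CTAL to 51.2 ± 5.38 in DCT and was at 38.9 ± 5.64 in CNT. Cnnm1 fell by 1.24 ± 0.33 from DCT to CNT (adjusted p = 0.0064), and its highest level was in ATL (103 ± 19.5 TPM), where Trpm6 had its second peak. Tusc3 fell by 1.22 ± 0.13 from CTAL to DCT (adjusted p = 4.3e-10).

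Of 18 listed hormone receptors and regulators of the pathway, all tested, 4 rose and 2 fell from CTAL to DCT (2.01% and 2.34% of all genes). From DCT to CNT, 8 fell and 3 rose (1.52% and 3.7% of all genes), with a median of DCT minus CNT of -0.03 against -0.02 for all genes, and 4 were higher in DCT than in every other group (0.21% of all genes). Kl (klotho, which stabilises TRPV5 at the membrane) was at 232 ± 16.9 TPM in CTAL, 2089 ± 295 in DCT, 627 ± 131 in CNT and 123 ± 24.9 in CCD. Vdr, the vitamin D receptor, was at 96.9 ± 10.3, 474 ± 64.3, 140 ± 17.9 and 52.5 ± 7.88 TPM in the same order. Both, with Klk1 (tissue kallikrein) and Wnk1 (a kinase that regulates Slc12a3), were higher in DCT than in every other group, by 1.76, 1.65, 2.40 and 2.96 over the next group (adjusted p = 0.0035, 0.0015, 1.1e-05 and 6.5e-14). Pth1r, the parathyroid hormone receptor, was at 594 ± 99.8 TPM in CTAL and 569 ± 115 in DCT and fell by 4.49 ± 0.32 to CNT (24.3 ± 1.53 TPM, adjusted p = 7.7e-15), where Trpv5 and S100g were still abundant. Egf, whose product stimulates TRPM6, was at 16508 ± 2260.3 TPM in CTAL, 2800.2 ± 852 in DCT and 4.63 ± 6.39 in CNT, and fell by 9.74 ± 0.40 from DCT to CNT (adjusted p = 3.1e-23). Casr, the calcium-sensing receptor, fell by 2.34 ± 0.17 from CTAL (225 ± 13.5 TPM) to DCT (44.1 ± 8.87, adjusted p = 6.6e-15) and was at 50.1 ± 0.414 TPM in CNT.

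Of 17 genes listed around inherited disorders of salt and magnesium handling in the kidney, 3 rose and 4 fell from CTAL to DCT (2.01% and 2.34% of all genes). From DCT to CNT, 6 fell and 1 rose (1.52% and 3.7% of all genes), with a median of DCT minus CNT of 0.29 against -0.02 for all genes. In the test against every other group, passed by 0.21% of all genes, 1 gene of the list was higher in DCT, Slc12a3 (9.58 over the next group, DTL1, adjusted p = 1.5e-24). The genes that fell from CTAL to DCT were those of the thick limb and its paracellular route: Slc12a1 by 9.21 ± 0.62, Cldn10 by 8.54 ± 0.32, Cldn16 by 7.45 ± 0.37 and Cldn19 by 7.38 ± 0.47 (adjusted p from 2.1e-25 to 4.0e-16). Claudins are proteins of the tight junction, of which Cldn16 and Cldn19 serve the passage of calcium and magnesium between thick limb cells and Cldn10 that of sodium. Fxyd2, the gamma subunit of the sodium pump, rose by 1.52 ± 0.18 from CTAL to DCT (adjusted p = 3.9e-09), and fell by 2.58 ± 0.20 to CNT (adjusted p = 3.8e-14), and Pcbd1, an enzyme that recycles the cofactor tetrahydrobiopterin, fell by 1.32 ± 0.18 from DCT to CNT (adjusted p = 2.0e-07). Kcna1, a potassium channel linked to inherited magnesium loss, was at 0.0233 ± 0.0126 TPM in DCT.

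**Figure D5:**
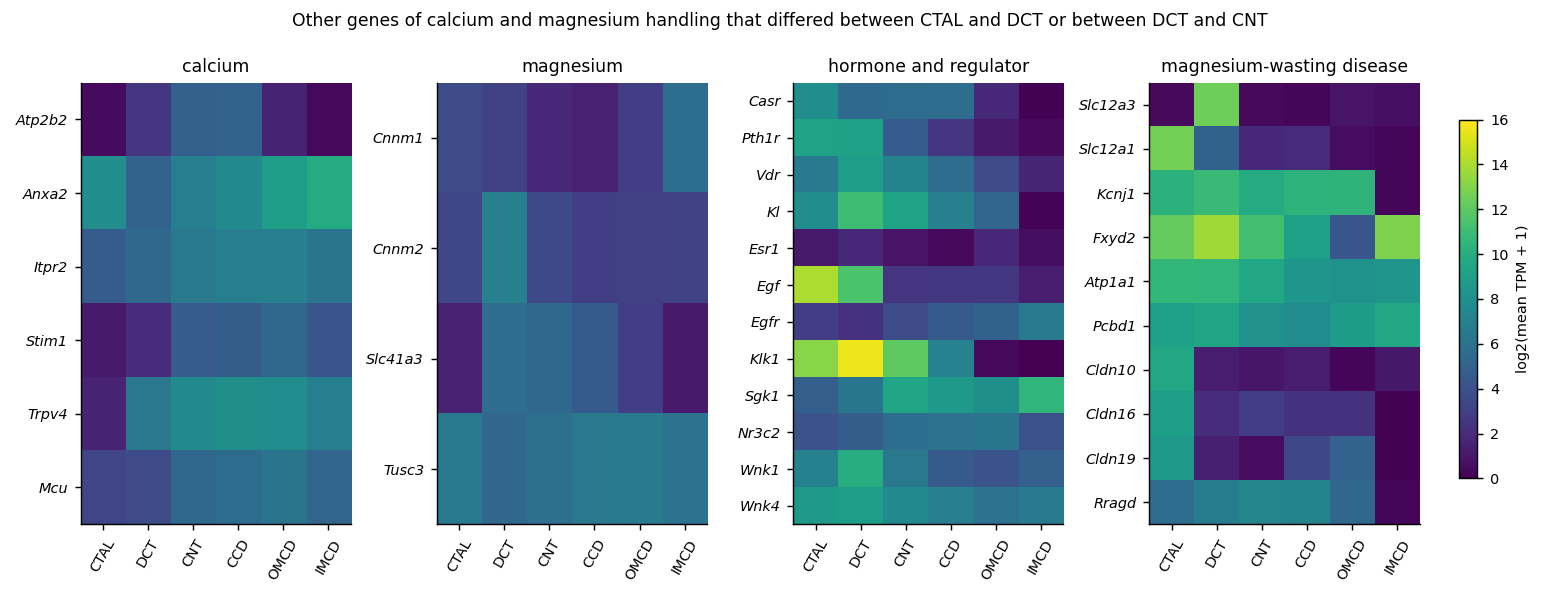
Genes of the 4 lists that passed the test between CTAL and DCT or between DCT and CNT (rows), coloured by the log2 of mean TPM + 1, over the distal segments (columns). Cnnm2, Vdr, Kl, Klk1, Wnk1 and Slc12a3 are brightest in DCT, the claudins in CTAL, and Trpv4, Stim1 and Atp2b2 are brighter in CNT than in DCT.

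The genes whose group means most resembled those of a member over the 15 groups were found by Pearson's r of log2(TPM + 1) among 12275 genes with a highest group mean of at least 10 TPM. They are given as a description. For Trpv5 they were Malrd1 (0.98), Llcfc1 (0.98) and Mymx (0.96), and Malrd1 was also the closest to Calb1 (0.97) and S100g (0.94). Malrd1 was at 43.1 ± 1.44 TPM in DCT, 40.1 ± 10.2 in CNT and 11.3 ± 2.61 in CCD. Calb1 was next closest to Hkdc1 (0.97) and Trpv5 (0.95), and S100g to the kallikreins Klk1b3 and Klk1b5 (0.93 and 0.92), a gene family of near-identical copies whose reads can be split. For Trpv6 the closest were Cpsf4l (0.98), Dsc2 (0.98) and Scnn1b (0.97), the last an epithelial sodium channel subunit at 307 ± 25.3, 1149 ± 76.5, 1333 ± 143 and 691 ± 38.6 TPM in DCT, CNT, CCD and OMCD. Pvalb was closest to Gulo (0.98), Slc12a3 (0.96) and Lhfpl1 (0.94), and Trpm6 to Pvalb (0.87), Gulo (0.87) and Lhfpl1 (0.80), with the ATL level of Trpm6 not shared by Gulo (0.275 ± 0.321 TPM). Slc8a1 was closest to Ltc4s (0.93), Hkdc1 (0.92) and Slc41a3 (0.90). These r rest on 15 means that share the dominance of DCT and CNT, and 6 of the 21 genes remained among the 3 closest by Spearman's rho.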

How the data were processed

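RNA of microdissected segments was extracted with Direct-zol kits, converted to cDNA with the SMARTer V4 Ultra Low kit and made into libraries with Nextera XT, per the labels' protocols. The authors deposited TPM, and the submitters' processing notes name STAR 2.5.4a and RSEM 1.3.0, while the genome build, annotation and strand setting are not given in the sources used here. Depth is not kept by TPM. All 93 columns of dissected samples were used, 0 columns of sample values were left aside, and the 3 single-cell samples were not analysed here. A PTS2 column named for mouse 2 has a piece letter that no sample title of that mouse has. It was used as 1 PTS2 mouse, without its number.

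Pieces of a mouse were averaged as log2(TPM + 1), and genes with at least 1 TPM in at least 3 mice were kept (33793). limma 3.58.1 in R 4.3.3 (lmFit, eBayes with trend) was fitted over all 15 groups sharing 1 spread, with two-sided contrasts between successive distal segments, one-sided intersection-union tests (the largest p over 14 contrasts for DCT, 26 for DCT and CNT), and Benjamini-Hochberg adjustment over all genes. A call needed an adjusted p under 0.05 and also, for contrasts, 1 or more on the log2 scale. The pseudocount of 1 makes differences of low genes smaller than they are. On simulated data, 196 of 200 changes of 2 log2 units were recovered between DCT and CNT, with 6 other genes called. The changed genes were drawn from those with a CNT mean above 3 on the log2(TPM + 1) scale, with normal errors of each gene's own spread. Recovery of changes in lower genes was not tested. The members and lists were chosen with earlier results of these data known. An item of the lists is not reported here and was left out of their counts. Named genes are the members, listed genes past a DCT or CNT contrast or on whose level a result turns, and the 3 genes closest to a member. Python 3.11.15 with pandas 2.3.3 and matplotlib 3.10.9 made the tables and figures. Nothing further says how the pieces of 1 mouse were chosen, and p-values measure the spread between mice.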

Additional observations from a re-analysis of the deposited data

Results flagged for a closer look

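In groups of 4 or 5 mice, 3 values of members stood apart from the rest of their group by Dixon's criterion on the log2(TPM + 1) scale, out of 26 groups of values with a mean of at least 1 TPM. Chance gives about 1 such case in 20 groups. Trpm6 in ATL was 9.83 TPM in mouse 2, against 13.6 to 14.2 TPM in the other 3 mice. In the same mouse Atp2b1 was 42.1 TPM, against 48.6 to 49.7 TPM. S100g in CTAL was 42.8 TPM in mouse 2, against 30.5 to 33.5 TPM in the other 4, and the call against MTAL did not depend on that mouse.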

How the results depend on the processing

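All counts of called members were recomputed with pseudocounts of 0.1 and 5, a filter at 5 TPM and none, median ratio scaling over 8216 genes, quantile normalization, pieces averaged as TPM or kept with the mouse as a random effect, other sets of groups in the fit, and without each mouse in turn. The counts ranged from 1 to 1 for MTAL against CTAL, 9 to 9 for CTAL against DCT, 6 to 7 for DCT against CNT, 4 to 5 for CNT against CCD, 3 to 4 for CCD against OMCD, 4 to 6 for OMCD against IMCD and 10 to 10 for the F-test. The 1 member called for MTAL against CTAL was S100g, except with a pseudocount of 0.1, where S100g was lost (adjusted p = 0.103) and Calb1 gained (-1.93, MTAL minus CTAL, adjusted p = 0.048). Of the recomputed tests of single members, 2937 kept their side of the threshold and their direction, 35 were lost, 8 were gained and 0 changed sign. With a pseudocount of 0.1 the members higher in DCT than in every other group fell from 4 to 2 and those higher in both DCT and CNT from 4 to 2 (33 and 4 of all genes); the other settings gave 4 to 6 and 3 to 4. Leaving out 1 mouse gave 4 to 5 and 3 to 4. By Spearman's rho, 6 of the 21 closest genes remained, and a floor of 20 TPM left 35 of 41 shares. Counts over all genes moved more. A pseudocount of 5 gave 492, 873, 1055, 166, 839 and 2826 for the 6 steps from MTAL to IMCD against 1066, 1470, 1765, 378, 4095 and 6284, a pseudocount of 0.1 gave 11271 and 11665 for the last 2, quantile normalization 251 for CNT to CCD and 1593 for CCD to OMCD, leaving out CNT mouse 3 gave 219 for CNT to CCD, and the filter at 5 TPM 17910 against 31732 in the F-test. The cause was not tested.

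Mouse numbers paired no samples: same-numbered mice of successive segments deviated together with r from -0.16 to 0.19, over 0.1 for at most 1 pair in any contrast, although between DCT and CNT all 3 mice correlated best with their own number. With the mouse number as a replicate block the counts of members were the same (1, 9, 7, 5, 3, 5, 10, 4 and 4, in the order above with the intersection-union tests last), and 1794 of all genes differed between DCT and CNT against 1765 without it. TPM keep no depth, so differences among values near 0, such as Trpv5 in OMCD and IMCD (called with a pseudocount of 0.1, 2.73, adjusted p = 0.00016), cannot be judged by counting error. Leaving out each mouse in the shares was added after seeing the data. It moved 13 of 252 values by over 1.5 times, of which S100g in OMCD (23.2%, or 13.5% without mouse 3) is a share printed above.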
